A study of Mus musculus with 3 samples.

Results

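Natural killer cells were described in single-cell RNA of mouse nasal mucosa. They were chosen by their own transcripts: a cell barcode was kept with at least 500 unique molecular identifiers (UMIs, counted RNA molecules), at least 200 genes and at most 20% mitochondrial UMIs. It counted as a natural killer cell when at least 2 of Ncr1, Klrb1c, Eomes, Gzma and Klra8 were detected and Cd3d, Cd3e, Trdc and Cd79a were all at 0. The rule found 184 cells among 32376 kept barcodes. The levels of those 9 genes therefore describe the choice and are no finding.

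The samples were 3 libraries, 1 per group, from C57BL/6J mice. Mice of the PBS group received PBS in the nose. In the papain group the nose was given papain (20 µg), which is a protease of papaya that provokes allergic airway inflammation, and PBS was given by gavage. The third group received the same papain and LND (read here as lonidamine, an inhibitor of hexokinase and of pyruvate and lactate transport) at 10 mg/kg by gavage. Each group had equal numbers of males and females, and the enzymatically digested mucosa of all its mice was pooled before capture with 10x Genomics 3′ chemistry. With 1 library per group nothing could be tested between groups, and every interval below is a 95% interval for counting error only. The papain library carries the library name Fibroblast in its labels and was used under its treatment label.

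Natural killer cells are innate lymphocytes that kill infected or transformed cells with perforin and granzymes and release interferon gamma and chemokines. They read target cells through activating and inhibitory receptors, many of the Ly49 (Klra) and NKR-P1 (Klrb1) families, and they depend on interleukin 15 signalling through the Il2rb chain. Tissue-resident type 1 innate lymphoid cells share Ncr1 and Klrb1c with them but are known to lack Eomes in many tissues and to carry Cxcr6 and Itga1.

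The PBS library held 64 of the natural killer cells, the papain library 43 and the papain with LND library 77. Their median depth was 3112, 2330 and 2293 UMIs, below the medians of all kept barcodes, 7416, 6612 and 5892. The 3 libraries held 82399462, 86197965 and 89164040 UMIs. Pairs of libraries shared between 22 and 36 kept barcodes, and no barcode was a natural killer cell in 2 libraries. Scrublet marked 3, 0 and 3 of the natural killer cells as likely doublets, and they were left in.

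Markers of natural killer cells that the rule did not use were detected unevenly, some widely and others in a minority of cells. Il2rb was detected in 61 of 64, 42 of 43 and 67 of 77 cells. Tyrobp, the adaptor of many activating receptors, was detected in 59, 42 and 66 cells, and Nkg7, a granule protein of cytotoxic lymphocytes, in 60, 35 and 57. Among olfactory neurons, which should lack it, Nkg7 was found in 0.123% to 0.599% of cells per library at a median of 7077.5 to 8084 UMIs. The transcription factor gene Tbx21 was less often found: with PBS in 7 of 23 cells with an Eomes UMI and 13 of 41 without. With papain it was found in 4 of 31 and 4 of 12, and with papain and LND in 12 of 47 and 6 of 30. The integrin gene Itga2 was found in 7 and 7, 12 and 2, and 8 and 6 of the same cells. Of 12 T cell markers 8 were detected, and they summed to 680, 486 and 718 CPM, against 129, 133 and 123 CPM in all other kept barcodes. Trbc1 and Trbc2, whose unrearranged transcripts are known in innate lymphocytes, were found in 39, 32 and 42 and in 15, 11 and 23 cells. Trac was found in 5, 2 and 7 cells and Cd3g in 1, and Cd4, Cd8a, Cd8b1 and Themis were at 0. Of 12 markers of group 2 innate lymphoid cells 9 were detected, summing to 279, 276 and 292 CPM against 185, 281 and 288 CPM in other barcodes, with Il1rl1, Il13 and Nmur1 at 0. Of 8 B cell markers 4 were detected, summing to 376, 267 and 467 CPM against 576, 535 and 492 CPM, with Cd79b, Ms4a1 and Pax5 among those at 0. The part of these cell types in the results below was not tested.

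The rule had a soft edge. Of the cells inside it 25, 10 and 33 carried exactly 2 of the 5 markers, and 391, 347 and 312 kept barcodes outside carried exactly 1. Ccl5, a chemokine gene that is highly expressed in natural killer cells, was detected in 72.0%, 70.0% and 78.8% of the cells just inside, against 8.44%, 5.19% and 7.37% of the barcodes just outside. Of the barcodes just outside, 85.2%, 81.8% and 77.6% had a UMI of Omp, a gene of olfactory neurons. Only 12.02%, 10.09% and 11.22% had one of the leukocyte gene Ptprc. The Ccl5 contrast is thus mostly with barcodes that carried Omp. Whether the edge separates natural killer cells from similar lymphocytes was not tested. A further 26, 13 and 22 barcodes had at least 2 markers but were left out for a T cell or B cell transcript.

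Some natural killer barcodes also carried transcripts of another lineage. At least 3 UMIs of Omp, Gap43, Epcam, C1qa, S100a8, Cdh5, Dcn or Myh11 were present in 7, 6 and 13 of them. One such barcode in the papain library held 71637 UMIs, 34.1% of all UMIs of its 43 natural killer cells. Summed over 10 epithelial markers, the level in all natural killer cells was 426, 14266 and 1854 CPM (counts scaled to the total of the summed cells), and over 10 olfactory neuron markers it was 15585, 591 and 4504 CPM. In the 57, 37 and 64 cells without such transcripts these sums were 373, 1374 and 1032 CPM for epithelium and 1156, 503 and 253 CPM for olfactory neurons. Levels and ratios below are over these cells, called the cleaner natural killer cells, which were set apart after the data had been seen. They held 187657, 89533 and 142397 UMIs.

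Natural killer cells made up a smaller share of the papain library than of either other library. They were 0.673% of kept barcodes with PBS (interval 0.518% to 0.858%), 0.401% with papain (0.291% to 0.540%) and 0.634% with papain and LND (0.501% to 0.792%). The share with papain was 0.597 times that with PBS (0.396 to 0.892), and the share with papain and LND was 1.58 times that with papain (1.07 to 2.35). Over the cleaner cells the ratios were 0.577 (0.371 to 0.887) and 1.53 (1.002 to 2.35). Both comparisons use the same papain library, so they are not independent. Among barcodes with a UMI of the leukocyte gene Ptprc the shares were 3.14%, 1.93% and 2.67%, and the ratios were 0.615 (0.406 to 0.925) and 1.38 (0.937 to 2.07).

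The direction between PBS and papain depended on how much of the population was counted. Cells with an Eomes UMI were 0.242%, 0.289% and 0.387% of kept barcodes, so their share was 1.20 times as high with papain as with PBS (0.676 to 2.15). Without the cells whose only rule markers were Ncr1 and Klrb1c, the shares were 0.504%, 0.383% and 0.568%, a ratio of 0.759 for papain over PBS (0.488 to 1.18) and of 1.48 for papain with LND over papain (0.994 to 2.24). Requiring Cd3g, Trac, Trbc1 and Trbc2 to be 0 as well left 22, 6 and 24 cells. With at least 3 of the 5 markers the 2 ratios were 0.752 (0.458 to 1.23) and 1.18 (0.732 to 1.91). Without Gzma as a marker they were 0.545 (0.3475 to 0.845) and 1.36 (0.873 to 2.145). With barcodes thinned to 2000 UMIs they were 0.441 (0.256 to 0.737) and 1.685 (0.993 to 2.93).

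**Figure D1:**
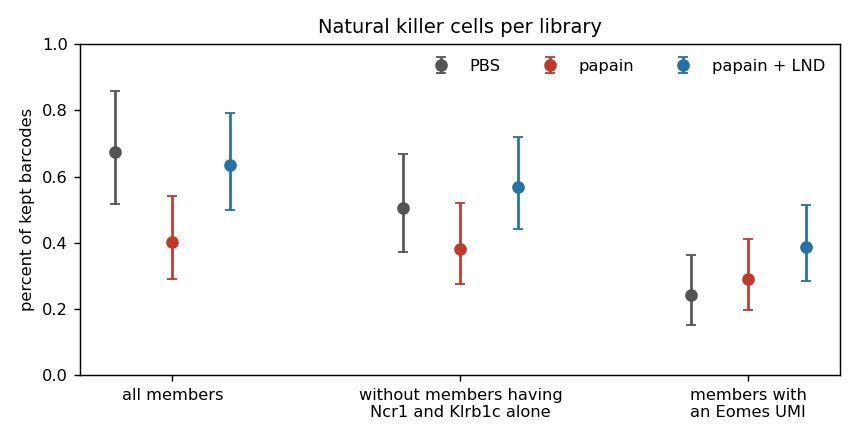
Share of kept barcodes (y axis, percent) that were natural killer cells in the PBS, papain and papain with LND libraries, with exact binomial 95% intervals, for all 184 cells, for cells other than those with Ncr1 and Klrb1c alone, and for cells with an Eomes UMI. The papain point is the lowest of the 3 in the first 2 sets, and the PBS point is the lowest in the third.

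The sexes were recovered unequally. Among natural killer cells that could be assigned by Xist or Y-linked transcripts, 70.0%, 78.6% and 92.4% were female, against 56.8%, 73.4% and 83.3% of all assigned barcodes. Within female barcodes the natural killer share was 0.714%, 0.376% and 0.769%, and within male barcodes 0.403%, 0.282% and 0.314%, the male values resting on 12, 6 and 5 cells. Over all natural killer cells the papain value was the lowest in each sex, but over the cleaner ones the male share with papain and LND was 0.890 times that with papain. How many mice stand behind each pool is unknown here.

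Of the other lymphocytes, gamma delta T cells had the same order of shares as natural killer cells, with papain the lowest and PBS the highest. They numbered 315, 141 and 199, or 3.31%, 1.32% and 1.64% of kept barcodes. Alpha beta T cells numbered 311, 483 and 496, or 3.27%, 4.51% and 4.08%, so there were 4.86, 11.2 and 6.44 of them per natural killer cell. Group 2 innate lymphoid cells, the type 2 cytokine producers of allergic mucosa, numbered 20, 76 and 127, or 0.210%, 0.709% and 1.05%.

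The cells that the rule chose as natural killer cells in the PBS library were not uniform. In 16 of the 64 (25%) the only rule markers were Ncr1, an activating receptor, and Klrb1c, the NK1.1 antigen. The papain library had 2 such cells of 43 (4.65%), and the papain with LND library 8 of 77 (10.4%). The group was noticed after its values had been seen and is a description only. Its cells had no Eomes, Gzma or Klra8 UMI by construction, and they were deeper than the rest: in the cleaner set the median was 4277 UMIs against 2592 with PBS, and 2878 against 2012 with papain and LND. The part of depth in what follows was not tested.

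Cxcr6, a chemokine receptor of tissue-resident lymphocytes, was found mostly in these cells. It was detected in 12 natural killer cells of the PBS library, all 12 of them among the 16, and in 4 of the papain with LND library, 3 of them among the 8. None of these 16 Cxcr6-positive cells had an Eomes UMI. In the papain library 0 of 43 cells had a Cxcr6 UMI, which allows up to 6.98% of cells with a UMI and sets no limit on cells that express the gene.

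Genes known from resident innate lymphocytes accompanied Cxcr6 in the cleaner PBS cells. Tmem176b was found in 10 of 13 cells with Ncr1 and Klrb1c alone and in 1 of 44 others. Gzmc, a granzyme, was found in 7 of 13 with 84 UMIs and in 0 of 44. Rora, a nuclear receptor of innate lymphoid cells, was found in 6 against 2 cells, and the collagen-binding integrin Itga1 in 7 against 2. Cxcr6 and Itga1 are among the genes given above for type 1 innate lymphoid cells. The lack of Eomes UMIs, also given there, follows here from how the cells were set apart and is no finding. Whether these cells are of that type was not tested. They are called natural killer cells here only because the rule chose them, and they stay in shares and ratios unless said to be left out.

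The interleukin 7 receptor Il7r was found in 5 of 13 cells against 1 of 44. Rgs1, a regulator of chemokine signalling that is high in resident lymphocytes, stood at 1597 against 497 CPM, and the chemokine gene Xcl1 at 1001 against 436 CPM. Gzmb stood at 3441 against 1668 CPM.

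Other genes were less often found in the cells with Ncr1 and Klrb1c alone. The activating receptor gene Klra4 was found in 0 of 13 cells against 17 of 44. Ly6c2 and the protease gene Cma1 were also found in 0 of 13, against 17 and 15 of 44. Klf2, a factor that maintains circulation, stood at 228 against 1454 CPM, and perforin (Prf1) at 140 against 1255 CPM.

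The chemokine gene Ccl5 was at 7724 against 17859 CPM, and Nkg7 at 772 against 3367 CPM. Il2rb was detected in all 13 and all 44. The 13 cells thus held less perforin message and more Gzmb and Gzmc message, in CPM, than the 44 others.

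The 8 cleaner cells with Ncr1 and Klrb1c alone in the papain with LND library were described by the same genes. Tmem176b was found in 4 of 8 against 3 of 56 others, Gzmc in 4 against 1, and Il7r in 3 against 1. Klra4 was found in 0 of 8 against 24 of 56, and Prf1 in 1 against 31. Rgs1 stood at 1647 against 509 CPM. Nkg7 stood at 980 against 1034 CPM and Ly6c2 at 178 against 91.7 CPM, unlike in the PBS library. The Ly6c2 value rests on 4 UMIs in 1 of the 8 cells, against 11 UMIs in 7 of the 56 others. With 2 cells the papain library could not be described in this way.

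**Figure D2:**
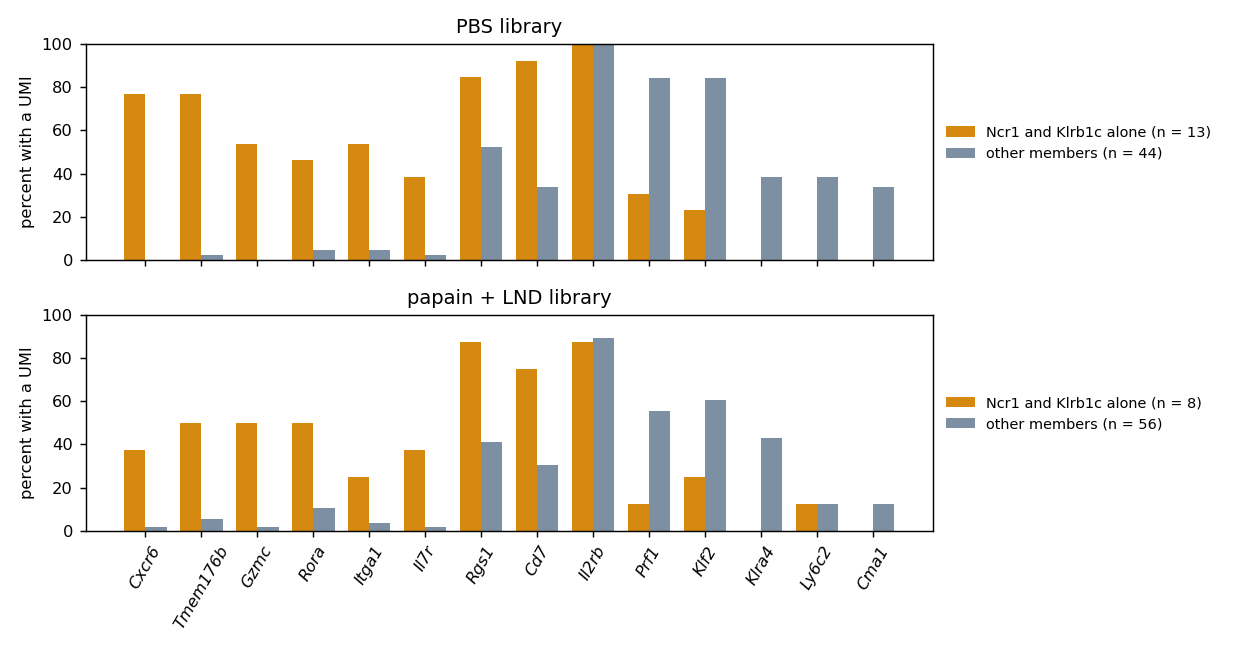
Percent of cells with a UMI (y axis) for 14 genes (x axis) in the PBS library, top, and the papain with LND library, bottom, over cleaner natural killer cells whose only rule markers were Ncr1 and Klrb1c (orange) and over the others (grey). The first 6 genes from the left, Cxcr6 to Il7r, are more often found in the orange cells of both libraries, and Prf1, Klf2, Klra4 and Cma1 in the grey ones.

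Eomes, the transcription factor that natural killer cells need to mature, was detected in 35.9% of the PBS, 72.1% of the papain and 61.0% of the papain with LND natural killer cells. When the cells were thinned to 1500 UMIs, which kept 63, 39 and 64 of them, the values were 23.8%, 56.4% and 45.3%. Olfactory neurons had an Eomes UMI in 8.66%, 16.1% and 12%, and the part of free RNA in the Eomes shares was not tested. Ncr1 had the reverse order, 82.8%, 37.2% and 44.2%, and 49.2%, 28.2% and 29.7% after thinning. Gzma was found in 67.2%, 93.0% and 83.1%, Klrb1c in 81.2%, 69.8% and 63.6%, and Klra8, the Ly49H receptor, in 35.9%, 53.5% and 36.4%. These markers chose the cells.

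Effector genes spread widely from cell to cell within a library. Gzma, a rule marker shown only as a description, ranged from 0 to 29293 CPM per cleaner cell with PBS, from 0 to 23422 with papain and from 0 to 18953 with papain and LND, around medians of 9748, 7337 and 3512 CPM. For Ccl5 the medians were 17004, 5694 and 3575 CPM, with 3, 4 and 9 cells at 0. Nkg7 had medians of 2813, 978 and 693 CPM, with 1, 7 and 18 cells at 0. The ranges of the 3 libraries overlapped for each of these genes. Cells are not replicates of a treatment, so the spread is given as a description.

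**Figure D3:**
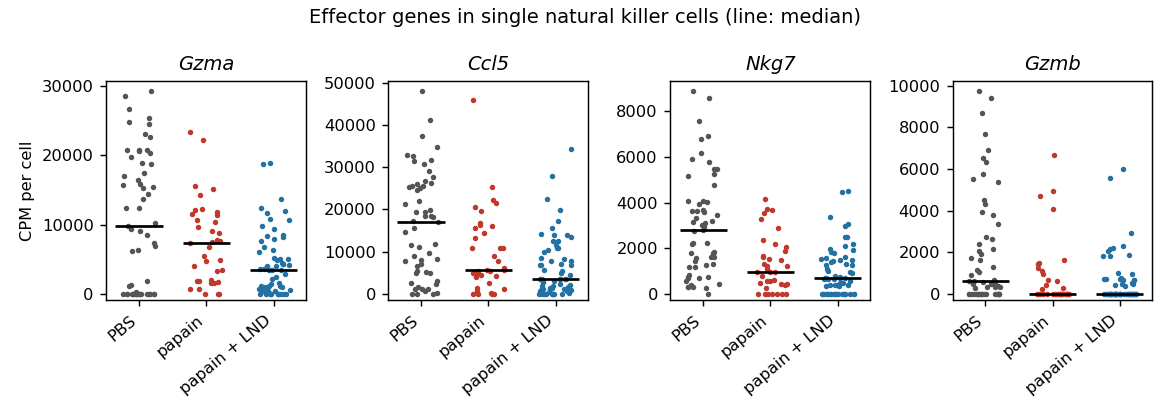
Level per cell in CPM (y axis) of Gzma, Ccl5, Nkg7 and Gzmb in the cleaner natural killer cells of the 3 libraries (x axis), 1 point per cell and a line at the median, with points shifted sideways for legibility. Gzma is a rule marker. The median line steps down from PBS to papain to papain with LND for Ccl5 and Nkg7, and it is at 0 for Gzmb in both papain-treated libraries.

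The first comparison, papain over PBS, asks how natural killer cells differed in allergic inflammation. In the papain library they held less message of several secreted factors and granule genes, Xcl1, Ccl3, Ifng, Gzmb and Nkg7, and more of Klra4, Stat3 and Foxo1. A gene was tabulated with at least 20 UMIs over both libraries and called with a ratio of at least 2-fold. Over the cleaner cells 9.29% of 2379 genes were called higher and 7.99% lower with papain. The median log2 ratio of all 2379 genes was -0.04.

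Of the 6 tabulated genes for secreted cytokines, chemokines and death ligands 0 were called higher and 3 lower, with a median log2 ratio of -1.04. Xcl1, which attracts cross-presenting dendritic cells, had 114 UMIs with PBS, 13 with papain and 69 with papain and LND, or 608, 145 and 485 CPM. The papain library was thus the lowest of the 3, at a log2 ratio to PBS of -2.02 (interval -3.02 to -1.23). Over 18 alternatives the ratio lay between -2.86 and -1.08.

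Ccl3, an inflammatory chemokine gene, had 60, 9 and 15 UMIs, a log2 ratio of -1.60 for papain over PBS (-2.87 to -0.65). Ifng had 45, 8 and 19 UMIs, a log2 ratio of -1.35 (-2.72 to -0.32). Ccl4 had 326, 93 and 112 UMIs and a log2 ratio of -0.74, and -1.63 when the cell with most Ccl4 was left out of each library. Ccl5 had 2774, 856 and 824 UMIs and a log2 ratio of -0.63 (-0.74 to -0.52). The death ligand gene Fasl had 46, 19 and 33 UMIs, with an interval that included 0.

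Of 12 cytotoxic granule genes 0 were called higher and 4 lower, with a median of -0.32. Nkg7 had 484, 111 and 146 UMIs, or 2579, 1240 and 1025 CPM, a log2 ratio of papain over PBS of -1.05 (-1.37 to -0.76). Gzmb had 414, 90 and 90 UMIs and a ratio of -1.13 (-1.48 to -0.80). Ctsw, a cathepsin of cytotoxic cells, had 168, 33 and 82 UMIs and a ratio of -1.26 (-1.86 to -0.74). Gzmc, the fourth, had 84, 18 and 57 UMIs in 7, 2 and 5 cells. Prf1 stood at 917, 827 and 414 CPM, a ratio of -0.14 (-0.56 to 0.25). Gzma, also on the list but a rule marker, stood at 8420, 7059 and 3792 CPM, a ratio of -0.25 (-0.39 to -0.12), which is a description only.

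Part of the difference in these effector genes moved with the cells that carried Ncr1 and Klrb1c alone. Without them the papain over PBS log2 ratio was -0.65 for Gzmb and -1.83 for Xcl1, and Gzmc had no PBS UMI left, since all 84 came from those cells. Nkg7 stood at -1.43, Ifng at -1.73 and Gzma at -0.70. Counting only cells with an Eomes UMI, Xcl1 stood at -1.08, Gzmb at -0.88 and Nkg7 at -1.31. Xcl1, Nkg7 and Gzmb were lower with papain under each of these choices.

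The promoters of effector genes were read for the core of the T-box motif, GGTGTGA, which Eomes and its relative T-bet are known to bind. Of 10 effector genes looked up in RefSeq promoters of mouse build GRCm38.p6, 7 had an entry: Xcl1, Nkg7, Prf1, Ifng, Ccl3, Gzma and Gzmb. The 250 bases before the start held the motif on either strand in 2 of them, Xcl1 and Nkg7. Over all entries 3.33% of 32851 promoters held it, a share of promoters and not of genes. The genes were looked up with earlier results of these data known, so no enrichment is read from the 2 matches. Xcl1 and Nkg7 are shown for the motif. Gzmb, Ifng and Ccl3, which like Xcl1 and Nkg7 were lower with papain, had no match in this window. A match describes letters only. The Xcl1 window is chr1:164935523-164935772, minus strand, with the motif, in capitals, 188 bases before the start. The Nkg7 window is chr7:43436888-43437137, plus strand, with the motif 13 bases before the start. Both are given 5′ to 3′ in the direction of the gene.
Xcl1: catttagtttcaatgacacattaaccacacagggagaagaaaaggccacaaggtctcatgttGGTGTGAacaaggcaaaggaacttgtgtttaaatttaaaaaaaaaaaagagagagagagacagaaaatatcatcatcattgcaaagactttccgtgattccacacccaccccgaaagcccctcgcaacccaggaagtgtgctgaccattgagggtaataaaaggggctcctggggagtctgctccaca
Nkg7: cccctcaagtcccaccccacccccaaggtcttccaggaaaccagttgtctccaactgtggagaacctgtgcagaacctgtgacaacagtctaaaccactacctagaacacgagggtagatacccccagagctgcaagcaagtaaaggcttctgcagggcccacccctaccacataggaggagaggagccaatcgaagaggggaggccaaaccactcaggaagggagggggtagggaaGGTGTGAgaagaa

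Of 12 activating and co-stimulatory receptor genes, 1 was called higher with papain and 4 lower, the rule marker Ncr1 among them. Klra4, the Ly49D receptor, had 61, 88 and 97 UMIs, or 325, 983 and 681 CPM, in 17, 18 and 24 cells. Its log2 ratio was 1.59 (1.11 to 2.09), and it was 1.15 without the cells carrying Ncr1 and Klrb1c alone. Klrb1a, an NKR-P1 receptor, had 42, 6 and 24 UMIs, a ratio of -1.64 (-3.26 to -0.50). Cd226, the adhesion receptor DNAM-1, had 27, 3 and 15 UMIs, a ratio of -1.91, and Fcgr3, the antibody receptor CD16, 18, 2 and 6 UMIs. Klrk1 (NKG2D) stood at 655, 592 and 583 CPM, with a ratio of -0.14 (-0.64 to 0.33).

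Of 6 inhibitory receptor genes 0 were called higher and 1 lower. That was Klra9, the Ly49I receptor, with 79, 17 and 35 UMIs and a log2 ratio of -1.12 (-1.998 to -0.38). Klrd1, the CD94 chain, had 114, 56 and 77 UMIs and a ratio of 0.05 (-0.45 to 0.52). The Ly49 genes Klra4 and Klra9 thus differed in opposite directions. Klra genes are closely related copies, so the counting may split reads among them and single Klra values are uncertain.

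Of 11 signalling adaptors and kinases, 1 was called higher and 0 lower. That was the kinase gene Syk, with 11, 12 and 24 UMIs and an interval that included 0. Tyrobp had 634, 178 and 233 UMIs, a log2 ratio of -0.76 (-1.01 to -0.52). Fcer1g, the Fc receptor gamma chain, had 633, 186 and 204 UMIs, a ratio of -0.70 (-0.94 to -0.46). Txk, a kinase of the Tec family, had 88, 63 and 108 UMIs, a ratio of 0.59 (0.10 to 1.07).

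Of 14 cytokine receptor and STAT genes 4 were called higher and 0 lower, with a median log2 ratio of 0.49. Of all 2379 genes 9.29% were called higher and 7.99% lower, with a median of -0.04. Whether the list differed from all genes was not tested. Stat3 had 52, 62 and 84 UMIs, a ratio of 1.32 (0.77 to 1.88). Il18rap, a chain of the interleukin 18 receptor, had 29, 31 and 53 UMIs, a ratio of 1.16 (0.39 to 1.95). Il21r had 11, 14 and 22 UMIs, a ratio of 1.40 (0.17 to 2.70), and the interval of Il4ra included 0. Ifngr1 stood at 1028, 1865 and 1110 CPM, a ratio of 0.86 (0.55 to 1.16), and Il2rb at 1434, 2022 and 1868 CPM, a ratio of 0.50 (0.22 to 0.77).

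Of 14 transcription factor genes 2 were called higher and 1 lower. Eomes, a rule marker, was 1 of the 2. Foxo1, a factor of quiescence and homing, had 6, 21 and 23 UMIs, a log2 ratio of 2.79 (1.52 to 4.47). Ikzf2 (Helios) had 28, 4 and 21 UMIs, a ratio of -1.60 (-3.71 to -0.22). Irf8, Runx3 and Ets1 had ratios of 0.62, 0.66 and 0.73 with intervals above 0. Id2, the regulator shared by innate lymphocytes, had 135, 37 and 87 UMIs, a ratio of -0.79 (-1.37 to -0.27).

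Few genes of maturation stage were called, beside 9.29% of all 2379 genes called higher and 7.99% lower. Lists this small can hold such calls at those shares, so no shift in stage is read from them. Among 8 early-stage genes 1 was called higher (Emb, an immunoglobulin-family protein, ratio 1.05) and 1 lower (Xcl1). Among 9 late-stage genes 1 was called higher (Itgam, CD11b, 11, 16 and 12 UMIs, ratio 1.59) and 2 lower (Ly6c2, 88, 12 and 15 UMIs, ratio -1.76, and Gzmb). Of 6 residency genes 0 were called higher and 1 lower, Tmem176b, with 33, 3 and 11 UMIs and a ratio of -2.19. Its ratio turned to 0.26 without the cells carrying Ncr1 and Klrb1c alone. Rgs1 had a ratio of -0.85, and of -0.07 without them.

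Of 23 activation and immediate early genes 3 were called higher and 0 lower. They were Nr4a3 (11, 22 and 55 UMIs, ratio 2.04), Zfp36 (1.29) and Rel (1.26). Btg2, an antiproliferative gene, had 266, 66 and 171 UMIs, a ratio of -0.94 (-1.35 to -0.55). Of 8 heat shock genes, which also respond to tissue dissociation, 0 were called higher and 1 lower, Hsp90aa1, with a ratio of -1.16 (-1.94 to -0.49).

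Among 5 interferon-stimulated genes 0 were called higher and 2 lower. Ly6e had 131, 25 and 96 UMIs, a log2 ratio of -1.30 (-2.001 to -0.70), while all 29 PBS UMIs of the other, Ifi27l2a, came from 4 cells. Of 10 genes of MHC class I presentation 0 were called higher and 2 lower, the immunoproteasome subunits Psmb8 (120, 25 and 28 UMIs, ratio -1.17) and Psmb9 (29, 6 and 11 UMIs).

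Of 9 mitochondrially encoded genes 3 were called higher with papain and 0 lower, with a median of 0.82. mt-Nd5 had a log2 ratio of 1.48, mt-Atp6 of 1.72 and mt-Atp8 of 1.74. Of 20 nuclear genes of oxidative phosphorylation 0 were called higher and 1 lower, the cytochrome oxidase subunit gene Cox5a (ratio -1.15), with a median of -0.55. The median mitochondrial share of all natural killer cells was 1.70%, 3.47% and 2.99%. The part of cell quality in these values was not tested. The 20 ribosomal protein genes had a median of -0.49, with 0 called in either direction.

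**Figure D4:**
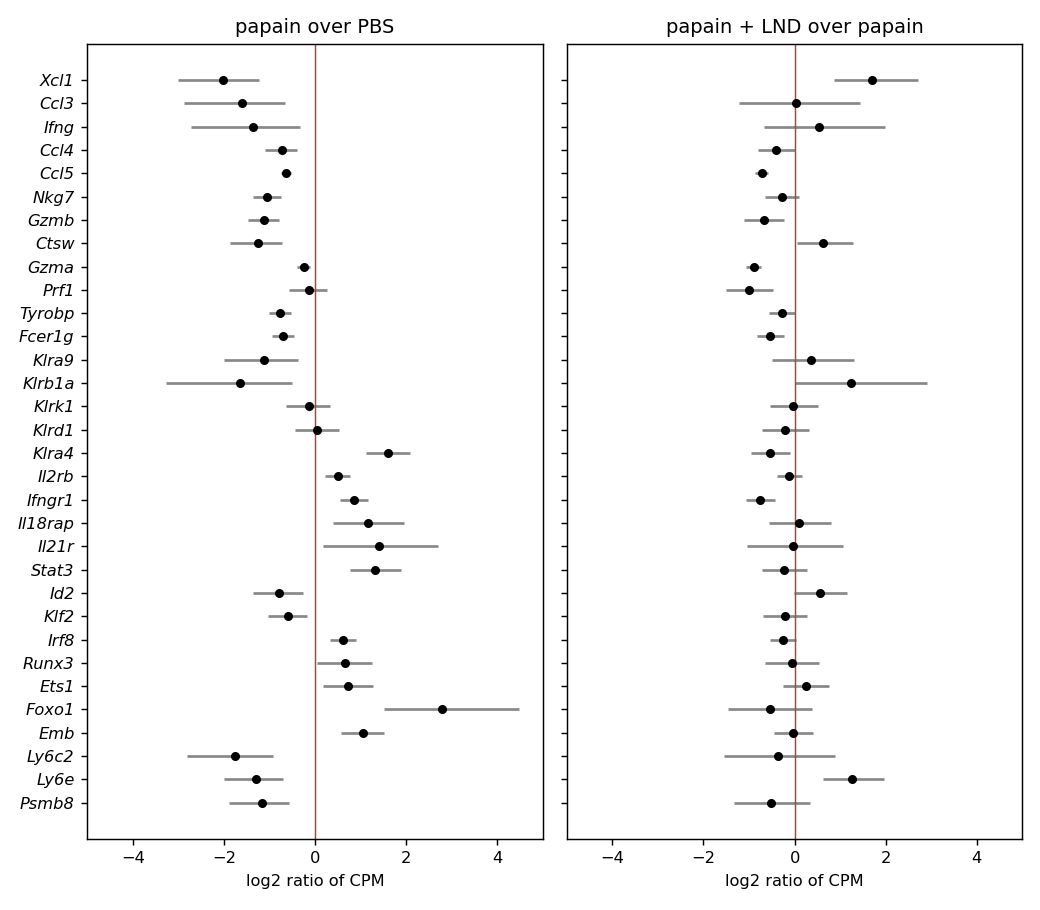
Log2 ratio of CPM (x axis) with 95% counting intervals for 32 genes (y axis) in cleaner natural killer cells, papain over PBS on the left and papain with LND over papain on the right, and a line at equal levels. On the left Xcl1 lies at -2.02 and Foxo1 at 2.79, and on the right Xcl1 lies at 1.69 and Prf1 at -0.99. The panels share the papain library, and Gzma is a rule marker.

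The second comparison, papain with LND over papain, asks how natural killer cells of inflamed mucosa differed when the inhibitor was given. Natural killer cells of the LND library held more Xcl1 and Ly6e message and less Prf1 and Ccl5. Over the cleaner cells 5.58% of 2097 genes were called higher and 2.81% lower with LND, and the median log2 ratio of all genes was 0.02. The papain values are those already used above, so a low value in that library enters both comparisons.

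Among the 6 secreted factors 1 was called higher and 0 lower. Xcl1 had a log2 ratio of 1.69 (0.87 to 2.72), between 1.02 and 2.21 over 18 alternatives. Ccl5 had a ratio of -0.72 (-0.86 to -0.58), and the intervals of Ifng, Ccl3 and Ccl4 included 0. For Ccl4 the ratio was -0.40, and 0.47 without the top cell of each library.

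None of the 12 granule genes was called in either direction. Prf1 had a log2 ratio of -0.99 (-1.51 to -0.48). Gzma, a rule marker whose level follows in part from the choice of cells, had a ratio of -0.90 (-1.06 to -0.73). Gzmb stood at 1005 and 632 CPM, a ratio of -0.67 (-1.11 to -0.23). That of Gzmb was 0.015 when Gzma was not counted as a marker and 0.080 when barcodes were thinned to 2000 UMIs. Ctsw had a ratio of 0.63 (0.04 to 1.27), and Nkg7 of -0.28 (-0.64 to 0.10).

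Of 10 activating receptor genes 1 was called higher and 0 lower, and of 6 inhibitory ones 1 and 0. The activating gene was Klrb1a (log2 ratio 1.24, 0.00 to 2.91) and the inhibitory one Klrb1b (1.01, 0.16 to 2.02), neighbours in the NKR-P1 family. Klra4 had a ratio of -0.53 (-0.96 to -0.10).

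No cytokine receptor or STAT gene of 13 was called, although Ifngr1 had a log2 ratio of -0.75 (-1.07 to -0.43). Of 15 transcription factors 1 was called higher, Ikzf2, with a ratio of 1.59 (0.16 to 3.72). Among 12 homing genes 1 was called higher, the monocyte chemokine receptor gene Ccr2, with 46, 18 and 64 UMIs and a ratio of 1.13 (0.39 to 2.003). Among 9 early-stage genes 2 were called higher, Xcl1 and Thy1 (20, 9 and 32 UMIs, ratio 1.11). Among 10 late-stage genes 1 was called lower, Itgam, on an interval that included 0.

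Of 22 immediate early genes 3 were called higher with LND and 0 lower, with a median of 0.39. Zfp36l1, which promotes decay of cytokine messages, had 50, 22 and 97 UMIs, a log2 ratio of 1.45 (0.79 to 2.21). Jun had 36, 16 and 54 UMIs, a ratio of 1.05. Egr1 had 16, 12 and 60 UMIs, a ratio of 1.61, and 0.96 without the top cell. Ly6e had a ratio of 1.25 (0.62 to 1.97).

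Genes of the pathways that lonidamine acts on were thinly covered. Of 3 tabulated target genes 0 were called higher and 1 lower, the pyruvate carrier subunit Mpc1, with 34, 17 and 12 UMIs and a log2 ratio of -1.16 (-2.37 to -0.02). Hk2, hexokinase 2, was detected in 4, 3 and 0 of the cleaner cells, the last of which allows up to 4.69% of cells with a UMI at this depth, and in 4, 5 and 2 of all natural killer cells. Of 8 glycolysis genes 0 were called higher and 1 lower. That gene was Gapdh, with 93, 45 and 31 UMIs and a ratio of -1.20 (-1.92 to -0.52). For papain over PBS 0 of 4 target genes were called, and of 10 glycolysis genes 0 were called higher and 1 lower, Tpi1, with 25, 3 and 8 UMIs. Of 17 nuclear oxidative phosphorylation genes 1, Ndufb8, was called lower with LND, on an interval that included 0, and of 9 mitochondrially encoded genes 0 were called.

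The same effector genes were set beside alpha beta T cells, which numbered 311, 483 and 496 at medians of 3360, 3282 and 2872.5 UMIs. Xcl1 was found in 51.6%, 20.9% and 33.8% of all natural killer cells and in 14.8%, 2.69% and 4.84% of T cells. After thinning to 1500 UMIs the natural killer values of Xcl1 were 36.5%, 12.8% and 28.1%, those of Nkg7 85.7%, 66.7% and 59.4%, and those of Prf1 54.0%, 53.8% and 29.7%. For Nkg7 the unthinned shares were 93.8%, 81.4% and 74.0% against 30.5%, 13.0% and 12.7%, and for Prf1 68.8%, 67.4% and 48.1% against 7.07%, 1.66% and 2.22%. In T cells, too, the PBS share was the highest for each of these genes. Whether the difference between libraries was larger in one cell type was not tested.

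**Figure D5:**
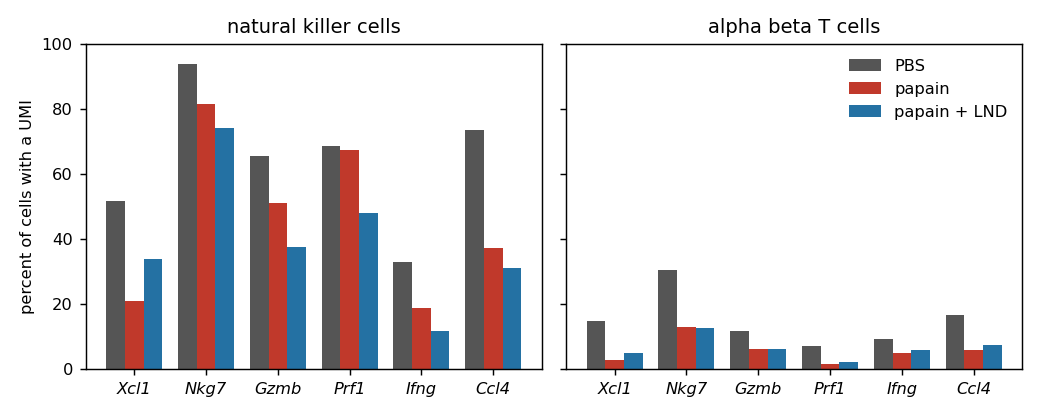
Percent of cells with a UMI (y axis) of 6 effector genes (x axis) in all natural killer cells, left, and alpha beta T cells, right, of the 3 libraries. Every bar is higher in natural killer cells, and the PBS bar is the highest of each trio in both panels, by 68.8% against 67.4% for Prf1 in natural killer cells.

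Single genes were named by their ratio. Among cleaner cells the highest for papain over PBS were Chil4, Lars2, Rn18s-rs5, Ltf, Adamts14, Foxo1, Reg3g, Adora2a, Wfdc18, Cbr2, Dgat1 and Tent4b. Chil4, Ltf, Reg3g, Wfdc18 and Cbr2 are epithelial or neutrophil genes whose level in natural killer cells was under 10% of that in the other barcodes of a library, and they may be free RNA. Rn18s-rs5, a ribosomal RNA gene, stood at 5553 CPM with PBS, 61977 with papain and 51623 with papain and LND. In the other kept barcodes it stood at 8807, 36355 and 34939 CPM, so its difference was not limited to natural killer cells.

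Lars2, mitochondrial leucyl-tRNA synthetase, had 12, 111 and 115 UMIs, and it too was higher in the other barcodes of the papain library, at 713 against 202 CPM. Adora2a, an adenosine receptor that restrains lymphocytes, had 20 UMIs in 18 papain cells against 6 in 6 PBS cells, a log2 ratio of 2.72 (1.44 to 4.41). In other barcodes it stood at 3.61 and 2.18 CPM. Dgat1, an enzyme of triglyceride synthesis, had 42 UMIs against 15, a ratio of 2.52 (1.67 to 3.51).

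The lowest for papain over PBS were Lyz2, Ifitm3, Il1b, Ptp4a3, Ptgds, Gngt2, Serpina3g, Erp29, Cd74, Phf5a, Ifitm2 and Tmem176b. With papain, Lyz2, Ifitm3, Il1b, Ptp4a3, Ptgds, Cd74 and Tmem176b were under 10% of their level in the other barcodes. Their UMIs in that library may be free RNA. With PBS, Tmem176b was found in 10 of 13 cleaner cells with Ncr1 and Klrb1c alone and in 1 of 44 others. The part of free RNA was not tested. Ptgds stood at 112 CPM with PBS against 2030 CPM in the other PBS barcodes. Of the 212 PBS UMIs of Lyz2, a myeloid gene, 156 came from 1 barcode, as did 53 of 88 for Ifitm3 and 16 of 27 for Il1b. For Ifitm2 26 of 33, for Gngt2 13 of 19 and for Cd74 18 of 37 PBS UMIs came from 1 barcode each. Macrophage and monocyte markers summed to 1934, 402 and 611 CPM in the cleaner cells, with 9, 5 and 6 of 11 detected, and their part was not tested. Serpina3g, an inhibitor of cathepsins, had 55 UMIs in 21 PBS cells against 4 in 4 papain cells, a log2 ratio of -2.56 (-4.64 to -1.28). Erp29, a chaperone of the endoplasmic reticulum, had 40 UMIs in 25 cells against 3 in 3, a ratio of -2.46 (-5.01 to -1.02).

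For papain with LND over papain the highest were Khdc4, Sipa1, Adipor2, Sntb2, Rhoh, Zfp512, Irf1, Cyb5r3, Irf2, Tram1, Ube2r2 and Phlda1. Irf1, an interferon-induced transcription factor, had 40 UMIs in 23 LND cells, 12 of them from 1 cell, against 6 in 6 papain cells, a log2 ratio of 1.97 (0.82 to 3.60). Rhoh, a GTPase of lymphocytes, had 24 UMIs in 20 cells against 3 in 2, a ratio of 2.14 (0.61 to 4.71). The lowest were Tent4b, Prkca, Crybg1, Swi5, Ppil4, Slc25a4, Ubac2, Cct5, Sos2, Eif3h, Ndufb5 and Gtf2h5. Their ratios were between -2.16 and -1.31, on 13 to 31 papain UMIs each.

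Over all natural killer barcodes, genes of other lineages led the ratios. For papain over PBS 8.66% of 4181 genes were called higher and 12.1% lower, and for papain with LND over papain 12.2% of 4127 higher and 5.52% lower. The 12 highest for papain over PBS were epithelial genes such as Chil4, Reg3g and Bpifb6, with 72.4% to 99.8% of their papain UMIs in 1 barcode. Among the 12 lowest were the olfactory neuron genes S100a5 and Stoml3, together with Cxcr6. The median log2 ratio of the 12 highest was 6.73 over all natural killer barcodes and 1.68 over the cleaner ones, and that of the 12 lowest was -5.14 and -1.73.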

How the data were processed

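Single-cell RNA of nasal mucosa was measured in 3 libraries, 1 pool of mice per group. The deposited values are unnormalized counts of UMIs for each gene in each barcode, per the file headers. They come from Cell Ranger, version 7.1.0 per those headers and 2.1.1, with genome build GRCm39, per the submitters' processing notes. Any removal of doublets by the authors is not given in the sources used. The matrices hold 55357 genes.

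Barcodes were filtered and natural killer cells chosen by the rule at the head of the results. Members and gene lists were chosen with earlier results of these data known. Python 3.11.15, numpy 2.4.6, scipy 1.17.1, pandas 2.3.3 and scanpy 1.11.5 (for Scrublet, run per library on kept barcodes) were used. Counts were summed over natural killer cells per library and divided by their total to give CPM. Log2 ratios had 0.5 counts added to each sum, with 95% intervals from the binomial distribution of 1 Poisson count given the sum of both. Shares have exact binomial (Clopper-Pearson) intervals, and a count of 0 was given the limit that 3 counts allow. UMIs from 1 pool measure no spread between animals, so intervals cover counting error only.

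Named genes had at least 20 UMIs over both libraries, at least 5 cells in the higher library and an interval that excluded 0, without mitochondrial, ribosomal protein and model genes. The 12 highest and 12 lowest were taken, and list members with 2 to 4 examples per list from 34 lists. Alternatives changed the added count, the UMI minimum, the totals, the cell filters, the marker rule, depth and sex, and added after seeing the data were 4 that left out mixed barcodes, the top cell, Rn18s-rs5 or the cells with Ncr1 and Klrb1c alone. The calculations were tested on simulated data.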

Additional observations from a re-analysis of the deposited data

How the results depend on the processing

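Ratios are log2 unless they are shares, and the cause of each move was not tested. Of 3531 values of single genes over the cleaner cells under an alternative, 10 turned direction, 119 moved by more than their counting interval and 3402 did neither. With Cd3g, Trac, Trbc1 and Trbc2 also at 0, the share ratios were 0.242 (papain over PBS) and 3.53 (papain with LND over papain) over all cells, and 0.247 and 3.53 over the cleaner cells. With Eomes required, papain over PBS was 1.20 and 1.24, and over cleaner male cells papain with LND over papain was 0.890.

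For papain over PBS, Tmem176b turned to 0.36 with at least 3 markers and 0.26 without the cells carrying Ncr1 and Klrb1c alone, Gzmc to 5.75 without those cells (17 papain UMIs, all in 1 cell, over 0 with PBS, so that only the lower bound of 2.67 can be read), Ifitm2 to 0.58 when thinned to 2000 UMIs, and Lyz2 and Prkca to 0.28 and -0.047 in female cells. For papain with LND over papain, Gzmb turned to 0.015 without Gzma as a marker and 0.080 when thinned, Crybg1 to 0.18 when thinned, and Gzmc to -2.17 without the cells carrying Ncr1 and Klrb1c alone. Over all cells the stromal and endothelial median turned to 0.10 (papain over PBS, at least 5 UMIs) and the epithelial median to 1.84 (LND, thinned). The median of the 12 lowest genes with LND turned to 0.60 thinned, 0.37 in female cells, 0.058 without the top cell and 0.14 without mixed barcodes.

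Counts of 2-fold genes moved most, and are given as higher and lower for papain over PBS, then for papain with LND over papain. Over all cells, against 362 and 507, then 504 and 228, they were 117 and 171, then 151 and 92 (at least 50 UMIs), 1331 and 1697, then 1877 and 964 (at least 5 UMIs), 91 and 119, then 103 and 55 (thinned), and 221 and 190, then 117 and 59 (mixed barcodes out). Female cells gave 209 and 294, then 294 higher, and 5 added counts gave 271 lower, then 275 higher. Over the cleaner cells, against 221 and 190, then 117 and 59, they were 38 and 53, then 18 and 4 (at least 50 UMIs), 1098 and 923, then 912 and 653 (at least 5 UMIs), and 75 and 103, then 66 and 29 (thinned). Requiring 3 markers gave 138 higher, then 75 higher, and requiring Eomes 108 and 96, then 69 higher. Female cells gave 69 and 77, and 5 added counts 38 lower, then 27 and 38.

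Male cells alone and cells without any T cell receptor message left under 10 cells in a library and gave shares only. Depth limits single genes: most named genes rest on fewer than 50 UMIs. No paired analysis was possible because each group is 1 library.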
